A study of Mus musculus with 21 samples.

Results

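The enzymes that carry pyruvate and fatty acids into the citric acid cycle, and the cycle itself, were examined through 36 genes chosen by name: 4 of the pyruvate dehydrogenase complex, 13 of the cycle and 19 of mitochondrial fatty acid oxidation. They were taken from 35598 genes measured in glomeruli, the filtering tufts of the kidney, which had been cut by laser out of frozen sections. They came from 21 female mice of 3 months of age, each giving 1 library. All 36 genes were found in the tables and all passed the filter on low counts, which left 13898 genes. The mice called cKO carried floxed Epac1 alleles (Epac1fl/fl) and a Cre transgene that deletes Epac1 in podocytes. Their littermates, called flox, carried the same Epac1fl/fl alleles without Cre, so both genotypes share the floxed alleles. For the nephritis groups, nephrotoxic serum was given into a vein on 2 days in a row, and kidneys were taken at day 4 or day 11. The PBS groups are controls that got PBS in place of serum. The libraries numbered 3 cKO and 3 flox under PBS, 4 cKO and 3 flox at day 4, and 4 cKO and 4 flox at day 11. Epac1, encoded by Rapgef3, is a cyclic AMP-activated exchange factor for Rap GTPases, and the study asked about its part in podocytes as the nephritis progresses. Endothelial, mesangial and other cells of the tuft are not targeted by the Cre.

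Pyruvate dehydrogenase converts pyruvate to acetyl-CoA, and citrate synthase feeds that acetyl-CoA into the citric acid cycle, whose dehydrogenases pass electrons to the respiratory chain. Fatty acids reach the same pool after activation by acyl-CoA synthetase, transfer across the mitochondrial membranes as carnitine esters, and repeated rounds of dehydrogenation, hydration, a second dehydrogenation and thiolysis. In the kidney, fatty acid oxidation is the main fuel of the proximal tubule, while the energy use of the glomerulus is smaller and includes glycolysis.

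The smallest library, cKO day 11 replicate 3, held 4550545 reads, the largest 24295719 and the median one 19470092. Genes with reads numbered from 7871 (cKO day 4 replicate 3) to 13006, and the ribosomal RNA gene CT010467.1 took 14.9% to 39.5% of reads. The spread between mice was wide, with a common biological coefficient of variation of 1.66. The 10 podocyte markers summed to between 3109 and 7582 CPM (reads scaled by adjusted library size) and all were detected in each group. Tubule RNA was present as well: 20 proximal tubule markers summed to between 729 and 8345 CPM and 14 distal nephron markers to between 631 and 5267 CPM, with the proximal tubule marker Slc7a13 at 0 in all 21 libraries. Rapgef3 averaged 121 ± 50.1 CPM in cKO PBS and 270.2 ± 60.5 CPM in flox PBS (SD, n = 3 each). At day 4 it averaged 119.9 ± 38.8 CPM in cKO (n = 4) and 190.8 ± 58.0 CPM in flox (n = 3). At day 11 it averaged 176.9 ± 28.65 CPM in cKO and 204.5 ± 100.7 CPM in flox (n = 4 each). The genotypes overlapped at both days. Tags at the 3′ end may lie outside the deleted part, so they do not check the deletion.

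RefSeq promoter windows of 300 bases (GRCm38.p6, 250 bases before to 50 after a start) were found for 33 members, and 3 had no entry. The cyclic AMP response element TGACGTCA, read on both strands, occurred in 2 of the 33 members, Ogdh and Mdh2, or 6.06%, against 2.03% of 27025 genes and 1.79% of 32851 windows. Ogdh and Mdh2 are shown because of that element, in capitals. Ogdh has several windows, and those with later starts lack the element. The Ogdh window shown is chr11:6291347-6291646 on the plus strand and the Mdh2 window chr5:135778399-135778698 on the plus strand. Hadha is shown because its window (chr5:30154931-30155230, minus strand) and that of Hadhb lie head to head, with starts 273 bases apart, and its capitals mark the 228 bases that both windows hold.
Ogdh: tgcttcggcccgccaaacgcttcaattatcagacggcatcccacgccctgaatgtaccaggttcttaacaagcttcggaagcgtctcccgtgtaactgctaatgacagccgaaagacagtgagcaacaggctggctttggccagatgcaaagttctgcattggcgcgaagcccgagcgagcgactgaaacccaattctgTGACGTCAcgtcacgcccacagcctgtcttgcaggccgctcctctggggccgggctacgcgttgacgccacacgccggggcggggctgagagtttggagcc
Mdh2: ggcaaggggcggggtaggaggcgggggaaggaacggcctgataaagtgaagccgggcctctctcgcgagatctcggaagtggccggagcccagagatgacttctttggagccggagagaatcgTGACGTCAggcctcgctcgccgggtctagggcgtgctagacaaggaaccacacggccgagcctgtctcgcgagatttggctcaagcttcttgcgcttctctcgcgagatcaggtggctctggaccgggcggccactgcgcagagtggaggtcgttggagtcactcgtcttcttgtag
Hadha: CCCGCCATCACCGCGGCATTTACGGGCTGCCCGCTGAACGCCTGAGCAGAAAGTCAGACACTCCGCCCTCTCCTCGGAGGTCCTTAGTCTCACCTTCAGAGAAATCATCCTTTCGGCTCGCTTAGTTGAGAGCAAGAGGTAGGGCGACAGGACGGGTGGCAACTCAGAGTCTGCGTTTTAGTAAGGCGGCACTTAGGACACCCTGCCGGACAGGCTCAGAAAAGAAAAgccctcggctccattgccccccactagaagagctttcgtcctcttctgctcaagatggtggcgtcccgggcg

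The ETS core CCGGAAG occurred in Idh3b, Idh3g, Dlst, Slc25a20 and Cpt2, or 15.2% of the 33 members, against 9.93% of 27025 genes. The nuclear receptor core AGGTCA, which can lie within longer elements, was found in 8 members, or 24.2%, against 18.1% of genes. The core of the NRF1 element, 10 bases long, was found in Etfdh, or 3.03% of members, against 1.07% of genes. The estrogen-related receptor element TCAAGGTCA and the direct repeat of AGGTCA spaced by 1 base were found in 0 members, against 0.466% and 0.0481% of genes. These matches describe letters in these windows and do not show binding.

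The members were expressed over a wide range in the glomerular libraries. The library kit reads the 3′ end of each transcript, so CPM values were compared between genes without a length correction. Mitochondrial malate dehydrogenase Mdh2 had the highest mean over the 21 libraries at 238 CPM, followed by its cytosolic counterpart Mdh1 at 230.5 CPM, the electron transfer flavoprotein beta subunit Etfb at 194.5 CPM, the thiolase Acaa2 at 186.5 CPM and the 2-oxoglutarate dehydrogenase subunit Ogdh at 185 CPM. The lowest means were those of fumarase, Fh1, at 8.78 CPM and of Etfdh, which passes electrons to ubiquinone, at 4.62 CPM. Summed over the 36 members, the share of a library's reads was 0.163% to 0.474%. The lowest share belonged to flox day 11 replicate 3 and the highest to cKO day 4 replicate 3.

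Genes for subunits of one enzyme did not have equal levels. Hadha, the alpha subunit of the trifunctional protein of long-chain oxidation, was above Hadhb, its beta subunit, in 21 of 21 libraries, with a median ratio of 7.27 (range 1.94 to 288.5; ratios of CPM + 1). Their promoters share the bases printed above. Etfb was above Etfa, its partner in the flavoprotein, in 21 of 21 libraries with a median ratio of 8.02, and Idh3g was above Idh3a, the catalytic subunit of NAD-dependent isocitrate dehydrogenase, in 21 of 21. Mdh1 was above Mdh2 in 11 of 21 libraries. Suclg2 was above Sucla2, the GDP- and ADP-forming subunits of succinyl-CoA synthetase, in 12 of 21, so neither pair had a fixed order. The spread within groups was smallest for Ogdh, with a within-group SD of 0.51 on the log2 CPM scale, and largest for the enoyl-CoA isomerase Eci1, at 3.10. Reads at the 3′ ends of Pdha1, Idh3b, Acadvl, Hadha and Eci2 overlap a gene on the opposite strand, and those of Etfb genes on the same strand; the strand setting of the counting is not given in the sources used here, so these levels are uncertain.

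**Figure D1:**
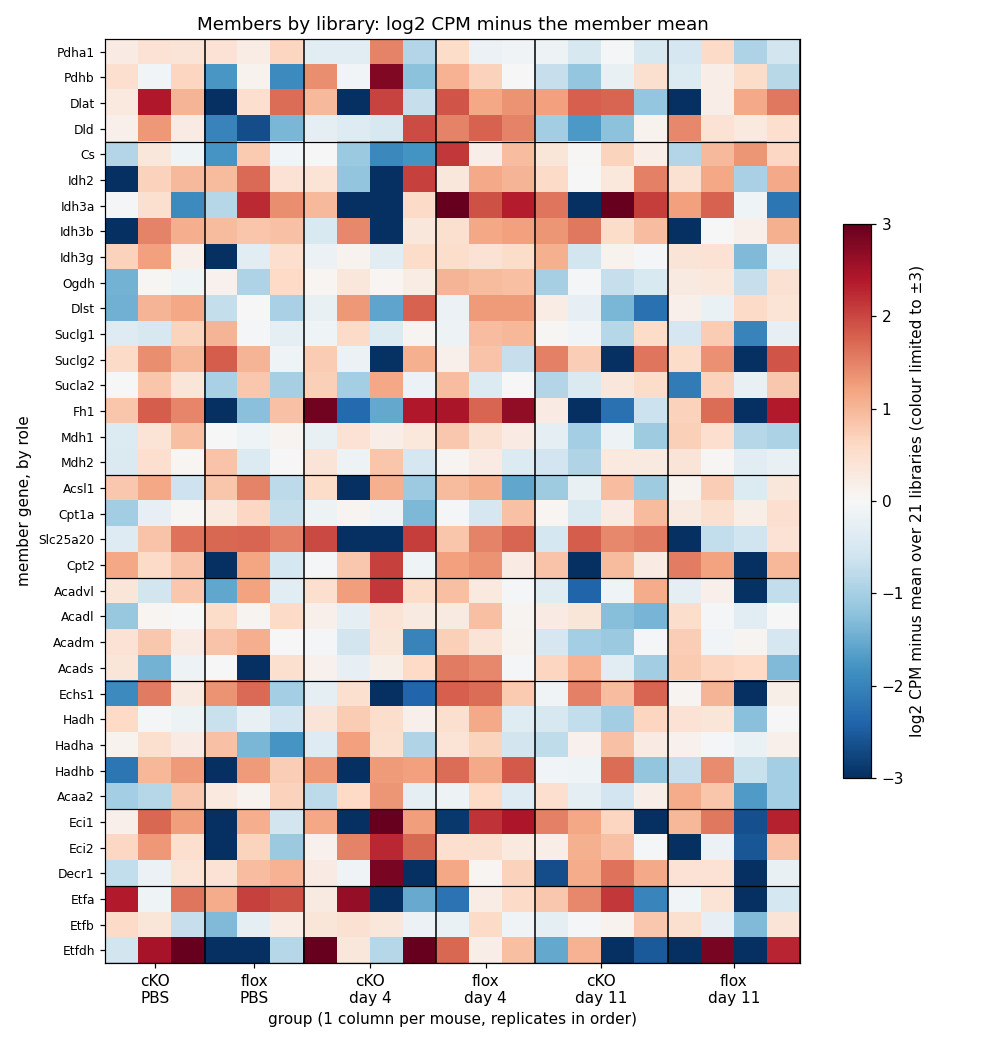
Deviation of each member from its own mean over the 21 libraries, on the log2 CPM scale (colour limited to ±3), with 1 column per mouse grouped by stage and genotype and 1 row per member in order of role. Columns of a group differ widely, most for Eci1 and Dlat (within-group SD 3.10 and 2.96 on the log2 CPM scale).

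No member passed the test in any of 13 comparisons. With edgeR's quasi-likelihood test and Benjamini-Hochberg adjustment over all genes, 0 of 36 members had an adjusted p under 0.05, whichever stage or genotype was compared. The background was low too: the share of all tested genes called was 0.0504% for cKO day 11 against cKO PBS, 0.0216% for day 4 against PBS over both genotypes, 0.122% for day 11 against PBS over both genotypes, 0.0072% for cKO against flox over the stages and 0.0% in the other comparisons. DESeq2, run as an alternative, called 1 member, Dld, in 6 comparisons and limma voom called 0. All 6 use the same flox PBS libraries, the lowest group for Dld at 4.48 to 11.0 CPM, so they are not independent. The DESeq2 background was much higher, at 495 to 1256 genes called per comparison, against 0 to 17 by edgeR and 3 to 103 by voom. The low-count filter had left 13898 genes. The Dld calls by DESeq2 therefore do not set the members apart from other genes. Few intervals were narrow: 10 of 36 members had a 95% interval within 2-fold in either direction for cKO against flox, 8 for day 11 and 6 for day 4 against PBS, both over genotypes. For the other members the interval reached beyond 2-fold. In bulk tissue, fewer cells of a type and less RNA per cell cannot be told apart.

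At an unadjusted p under 0.05, the members' share was below that of all tested genes except for day 11 against day 4 over both genotypes, where it was 11.1%. At cKO day 4 against cKO PBS, 0 members qualified (8.16% of tested genes), at flox day 4 against flox PBS 1 member (7.93%), at cKO day 11 against cKO PBS 2 members (6.02%) and at flox day 11 against flox PBS 1 member (8.25%). Over both genotypes, 3 members qualified for day 4 against PBS (9.28%), 1 for day 11 against PBS (9.12%) and 4 for day 11 against day 4 (8.57%). For cKO against flox the numbers were 1 under PBS (6.02%), 2 at day 4 (7.42%), 0 at day 11 (5.86%) and 2 over the stages (6.62%). The difference between genotypes in the nephritis change gave 1 at day 4 (7.74%) and 1 at day 11 (6.94%).

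Over both genotypes, 27 of the 36 members were higher at day 4 than under PBS, with a median log2 fold change of 0.23 against 0.01 for all genes tested. At day 11, 6 were higher and 30 lower than at day 4, with a median of −0.37 against 0.07 for all genes. Against PBS, 13 were higher and 23 lower at day 11, with a median of −0.09 against 0.07. Without cKO day 4 replicate 3 and cKO day 11 replicate 3, which had the fewest genes and the fewest reads, the 3 medians were 0.20, −0.25 and −0.08 (an alternative chosen after seeing the data).

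Each genotype was also taken alone, and the difference between genotypes was tested per gene only. At cKO day 4, 22 members were higher and 14 lower than in cKO PBS, with a median of 0.08 against −0.09 for all genes, and without cKO PBS replicate 1 there were 15 higher and 21 lower, with a median of −0.08. The 17 genes of the cycle and pyruvate dehydrogenase were 7 higher and 10 lower at cKO day 4 with all libraries kept. At flox day 4, 26 members were higher and 10 lower than in flox PBS, with a median of 0.49 against 0.08 for all genes. That median was lower with the proximal tubule level as a covariate. Of 19 tested proximal tubule markers, 18 were higher and 1 lower at flox day 4 (median 0.68). For cKO day 4 these numbers were 13 and 6 (median 0.18). At cKO day 11, 11 members were higher and 25 lower than in cKO PBS, with a median of −0.24 against −0.03, and at flox day 11 18 were higher and 18 lower than in flox PBS, with a median of 0.02 against 0.09.

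Of 19 tested proximal tubule markers, 16 were higher at day 4 than under PBS (median log2 fold change 0.53), 18 were lower at day 11 than at day 4 (median −0.93) and 17 lower at day 11 than under PBS (median −0.48). Distal nephron markers were lower at day 11 than at day 4 for 13 of 14 (median −1.27). With the proximal tubule level as a covariate, 15 members were higher and 21 lower at day 11 than at day 4, with a median of −0.07. The tubule markers themselves changed with stage, so fits with this covariate cannot separate tubule RNA from stage. The part of tubule RNA in the members' values was not tested. Of 10 podocyte markers, 8 were lower at day 4 than under PBS (median −0.40), 9 lower at day 11 than under PBS (median −0.63) and 7 lower at day 11 than at day 4 (median −0.19). All 5 red cell genes were lower at day 11 than under PBS (median −1.70), while 6 of 10 mesangial markers were higher and 4 lower (median 0.40), with 1 called by edgeR. The part of these cells in the members' values was not tested. Of genes of the same organelle, all 13 mitochondrially encoded genes were lower at day 11 than at day 4 (median −0.68) and 49 of 56 nuclear genes of the respiratory chain were lower (median −0.57), with 0 called in either list. Among 21 glycolysis genes, 12 were higher and 9 lower (median 0.20).

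**Figure D2:**
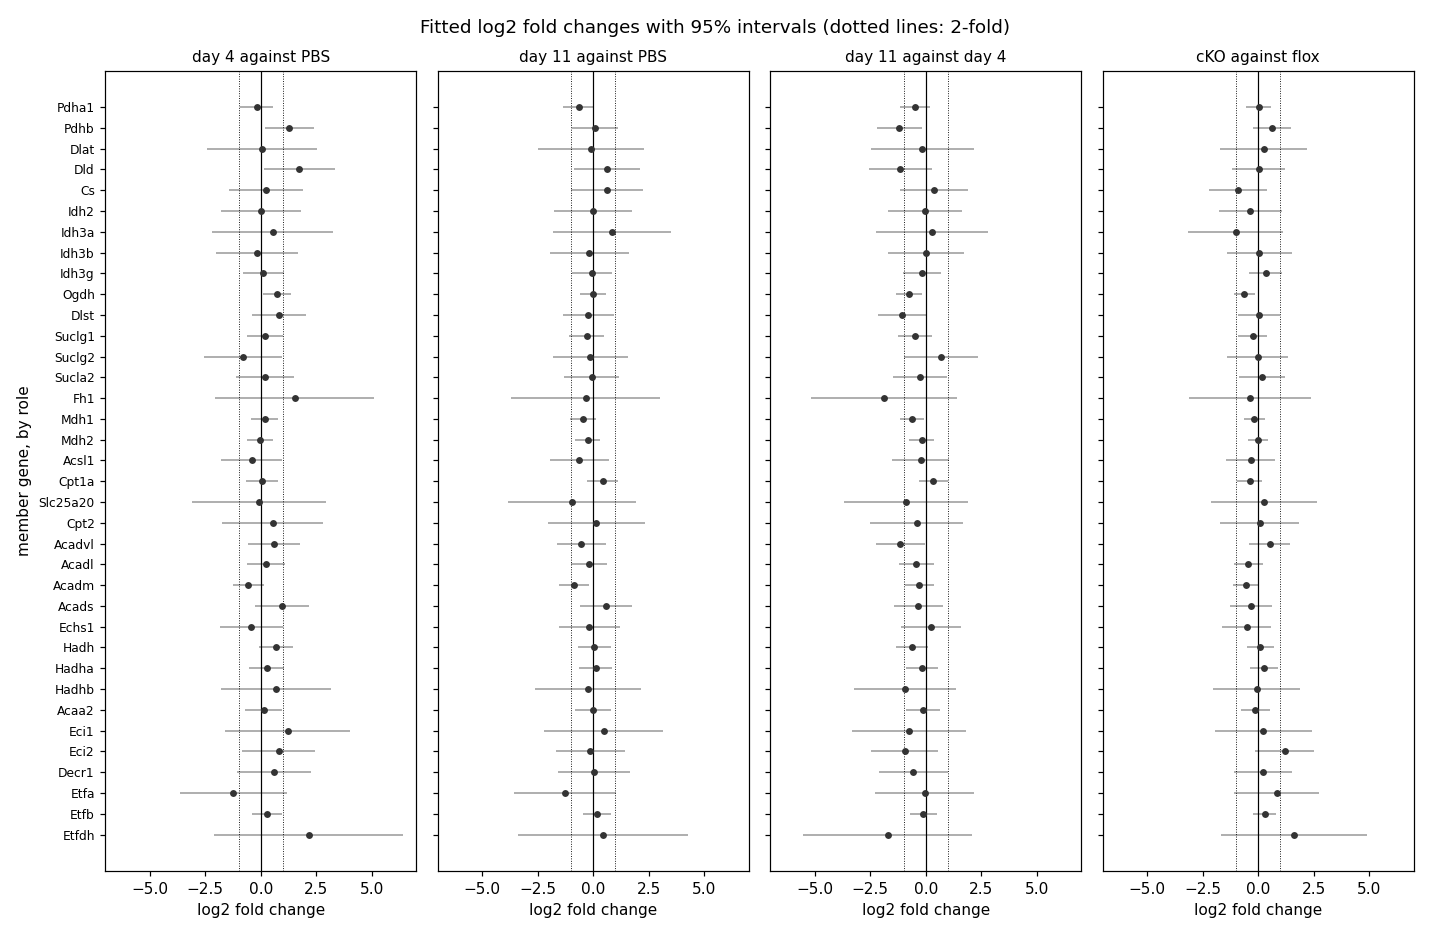
Fitted log2 fold change (x axis) with its 95% interval for each of the 36 members (y axis, by role) for day 4 against PBS, day 11 against PBS and day 11 against day 4, over both genotypes, and for cKO against flox over the stages. Most intervals cross 0, and those of low members such as Etfdh and Fh1 span several log2 units.

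Pyruvate enters through a complex of which Pdha1 and Pdhb encode the first enzyme, Dlat the second and Dld the third. Dld encodes dihydrolipoamide dehydrogenase, which the 2-oxoglutarate dehydrogenase complex uses as well. In cKO mice Dld had 32.2, 70.8 and 33.9 CPM under PBS, 23.8, 22.1, 20.4 and 111 CPM at day 4, and 13.9, 8.67, 12.1 and 30.8 CPM at day 11. In flox mice it had 7.05, 4.48 and 11.0 CPM under PBS, 81.0, 98.1 and 81.4 CPM at day 4, and 78.2, 38.8, 35.0 and 40.9 CPM at day 11. The flox PBS libraries were the lowest group, and they did not overlap the flox day 4 or flox day 11 libraries or the cKO PBS libraries. Within cKO, the order was the other way at day 11, where all 4 libraries were below the 3 PBS libraries.

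Against flox PBS, the log2 fold change of Dld was 3.53 ± 1.20 (SE) at flox day 4, with a 95% interval of 1.07 to 5.98 and an adjusted p of 0.592 by edgeR. It was 2.68 ± 1.13 at flox day 11 (adjusted p = 0.579 by edgeR). In cKO it was −0.04 ± 1.02 at day 4 and −1.48 ± 1.02 at day 11 (both adjusted p = 1 by edgeR). The difference between the genotypes in the day 11 change was −4.16 ± 1.51, with an interval of −7.23 to −1.09 and an adjusted p of 0.614 by edgeR. DESeq2 gave log2 fold changes of 3.47 at flox day 4 (adjusted p = 0.000194), 2.67 at flox day 11 (adjusted p = 0.00381) and 2.52 for cKO against flox under PBS (adjusted p = 0.0186), and a difference between genotypes of −3.47 at day 4 (adjusted p = 0.0171) and of −4.09 at day 11 (adjusted p = 0.00193). Per comparison, DESeq2 called 495 to 1256 of all tested genes and edgeR 0 to 17. Limma voom did not call Dld, so whether Dld was called depended on the tool. Its DESeq2 value at day 4 over both genotypes was 1.74 (adjusted p = 0.0153), and in edgeR 1.74 ± 0.78 with an adjusted p of 0.480.

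Pdhb, the beta subunit of the first enzyme, had 97.2, 64.1 and 106.9 CPM in cKO PBS, 178, 64.9, 467 and 28.9 CPM at cKO day 4, and 42.1, 30.2, 58.4 and 95.5 CPM at cKO day 11. Flox libraries had 20.1, 73.2 and 18.2 CPM under PBS, 140.3, 110.3 and 67.7 CPM at day 4, and 51.1, 78.1, 99.4 and 38.4 CPM at day 11. The groups overlapped, and the cKO day 4 libraries held both the highest and one of the lower values. For day 4 against PBS over both genotypes, the log2 fold change was 1.28 ± 0.54 (adjusted p = 0.440 by edgeR), 0.77 without cKO day 4 replicate 3, and 0.98 with the proximal tubule level as a covariate. For cKO day 4 against cKO PBS alone it was 1.05 ± 0.74 (adjusted p = 0.925 by edgeR), and 0.02 without that library, so that library decides the value.

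Pdha1, the alpha subunit, had 155.2, 176 and 169.9 CPM in cKO PBS, 104.7, 104.2, 368 and 71.2 CPM at cKO day 4 and 116.8, 93.2, 127.6 and 93.8 CPM at cKO day 11. Pdha1 in flox mice stood at 176.98, 152 and 206 CPM under PBS, 191, 116.7 and 120.9 CPM at day 4, and 91.8, 195, 69.1 and 89.01 CPM at day 11. The 4 cKO day 11 libraries were all below the 3 cKO PBS libraries, while the flox groups overlapped. Over both genotypes the log2 fold change of day 11 against PBS was −0.66 ± 0.35 (adjusted p = 0.600 by edgeR). Dlat, the acetyltransferase, was at 0 in 2 libraries.

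**Figure D3:**
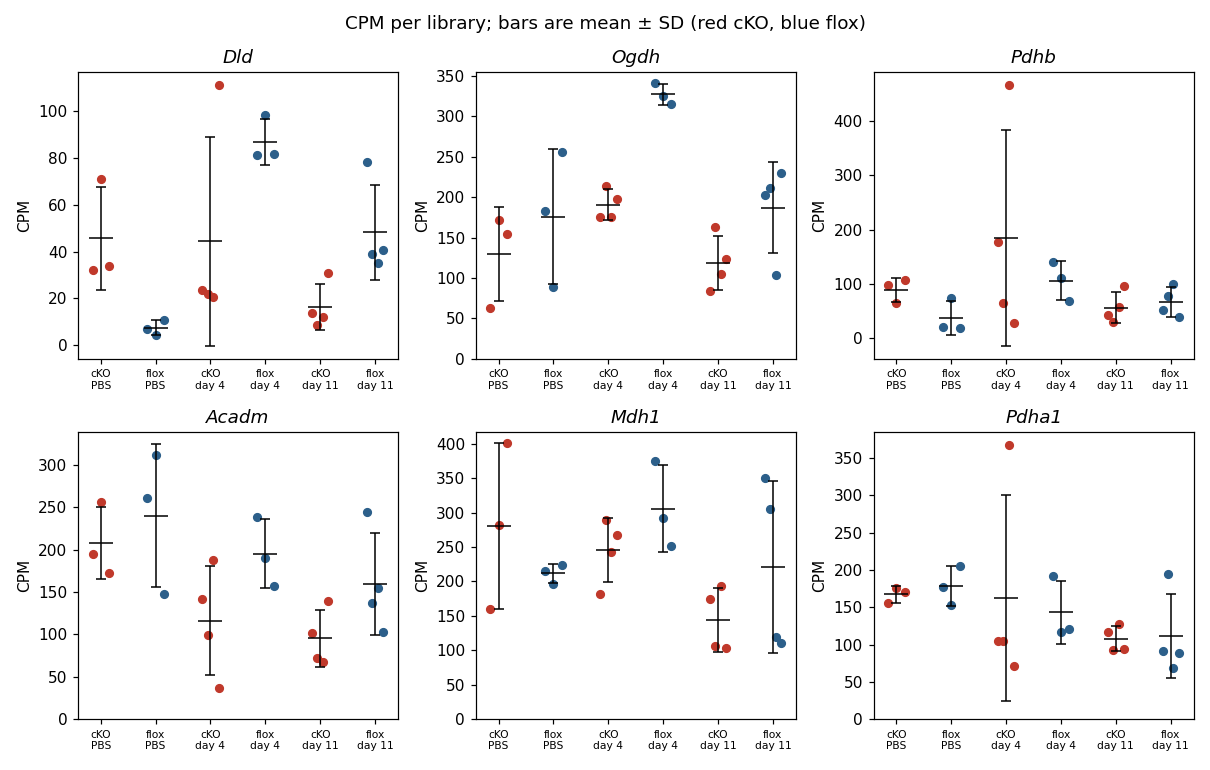
CPM (y axis) of Dld, Ogdh, Pdhb, Acadm, Mdh1 and Pdha1 in each library, by group (x axis; PBS, day 4, day 11, with cKO in red left of flox in blue); bars are means ± SD of 3 or 4 mice. Flox PBS lies at 4.48 to 11.0 CPM for Dld, and 1 cKO day 4 library stands far above the other 3 for Pdha1 and for Dld.

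Within the citric acid cycle, Ogdh, the substrate-binding enzyme of the 2-oxoglutarate dehydrogenase complex, was among the 3 members with the smallest p in 7 of the 11 comparisons of stages or genotypes. It had 63.3, 172 and 154 CPM in cKO PBS, 175.3, 214, 175 and 198 CPM at cKO day 4, and 84.1, 163, 104.6 and 123.7 CPM at cKO day 11. Its flox libraries had 183, 88.6 and 255 CPM under PBS, 341, 325 and 315 CPM at day 4, and 203, 211, 103.7 and 230.2 CPM at day 11. Day 4 was above PBS without overlap within each genotype, and cKO day 4 was below flox day 4 without overlap.

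For Ogdh at day 4 against PBS over both genotypes, the log2 fold change was 0.73 ± 0.31 (adjusted p = 0.440 by edgeR), and for day 11 against day 4 −0.74 ± 0.28 (adjusted p = 0.382 by edgeR). For cKO against flox it was −0.62 ± 0.24 over the stages (95% interval −1.11 to −0.14, adjusted p = 0.583 by edgeR), −0.78 ± 0.41 at day 4 and −0.66 ± 0.39 at day 11. The direction was the same under all the alternatives run, with values between −0.73 and −0.50 for the genotype difference over the stages.

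Cs, citrate synthase, which starts the cycle, had 15.6, 36.4 and 26.3 CPM in cKO PBS, 28.8, 13.2, 7.46 and 8.23 CPM at cKO day 4, and 37.1, 29.6, 45.7 and 33.1 CPM at cKO day 11. Among flox libraries, Cs had 8.32, 49.6 and 27.0 CPM under PBS, 124, 32.8 and 54.4 CPM at day 4, and 15.6, 56.8, 71.8 and 44.1 CPM at day 11. At day 4 all 4 cKO libraries were below the 3 flox libraries, with a log2 fold change of −2.29 ± 1.12 (adjusted p = 0.671 by edgeR) and −1.58 without flox day 4 replicate 1. Along with Cs, Ogdh, Idh3a and the hydratase Echs1 were lower in cKO at day 4 without overlap, or 11.1% of members against a background of 3.37% of tested genes.

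Mdh1, cytosolic malate dehydrogenase, had 160, 282 and 401 CPM in cKO PBS, 181.7, 289.6, 243 and 268 CPM at cKO day 4, and 175, 106, 193 and 102.6 CPM at cKO day 11. Flox values were 215, 196.6 and 224 CPM under PBS, 375, 292 and 252 CPM at day 4, and 351, 305, 119 and 109.8 CPM at day 11. Of the cKO day 11 libraries, 2 of the 4 lay below all cKO PBS libraries for Mdh1, and the other 2 lay above the lowest PBS library. The log2 fold change of cKO day 11 against cKO PBS was −0.96 ± 0.40 (adjusted p = 0.805 by edgeR), and with the proximal tubule level as a covariate it was −0.53.

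Dlst, the second enzyme of the 2-oxoglutarate complex, ranged from 11.6 to 190 CPM over the 21 libraries; its cKO libraries had 20.2, 112 and 123 CPM under PBS, 47.5, 135.5, 18.4 and 190 CPM at day 4, and 64.2, 46.7, 21.5 and 11.6 CPM at day 11. Its flox libraries had 33.6, 54.9 and 28.3 CPM under PBS, 49.2, 135.3 and 134.8 CPM at day 4, and 61.5, 48.5, 82.2 and 74.2 CPM at day 11. The groups overlapped, and the log2 fold change of cKO day 11 against cKO PBS was −1.24 ± 0.80 (adjusted p = 1 by edgeR). Idh3g, a regulatory subunit of isocitrate dehydrogenase, had 159.8, 232 and 110.4 CPM in cKO PBS against 7.11, 78.1 and 140 CPM in flox PBS, a log2 fold change of 1.16 ± 0.68 (adjusted p = 0.792 by edgeR) that was 0.60 without flox PBS replicate 1. At day 4 it had 88.1, 106.4, 78.3 and 143.6 CPM in cKO and 142.8, 133.6 and 144.3 CPM in flox. At day 11 it had 206, 67.9, 106.3 and 95.1 CPM in cKO and 128.3, 133.5, 39.5 and 86.3 CPM in flox.

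Fatty acids enter mitochondria through carnitine palmitoyltransferase 1, encoded here by Cpt1a, the step that sets the rate of oxidation. Cpt1a had 63.4, 110.9 and 133.7 CPM in cKO PBS, 119, 139.5, 121.5 and 51.8 CPM at cKO day 4, and 136, 96.9, 156.5 and 253 CPM at cKO day 11. The flox libraries held 162, 202 and 80.0 CPM under PBS, 128.6, 93.3 and 242 CPM at day 4, and 159.5, 183, 147 and 187 CPM at day 11. All compared groups overlapped, and Cpt1a had no interval clear of 0 in the comparisons plotted. The carnitine carrier Slc25a20 was at 0 in 3 libraries, and its 4 flox day 11 libraries were all below the 3 flox PBS libraries.

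Among the acyl-CoA dehydrogenases, the medium-chain enzyme Acadm had the lowest p of the 36 for day 11 against PBS over both genotypes. It had 195, 256 and 172 CPM in cKO PBS, 141.8, 98.6, 188 and 36.4 CPM at cKO day 4, and 101.6, 71.8, 67.4 and 139 CPM at cKO day 11. Acadm in flox libraries had 261, 312 and 148 CPM under PBS, 238, 190 and 157 CPM at day 4, and 244, 137, 154 and 102 CPM at day 11. All cKO day 11 libraries were below all cKO PBS libraries, and the flox day 11 and PBS libraries overlapped. Over both genotypes the log2 fold change was −0.86 ± 0.33 (95% interval −1.53 to −0.19, adjusted p = 0.352 by edgeR), and it lay between −0.999 and −0.743 under the alternatives, the proximal tubule covariate included.

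For cKO day 11 against cKO PBS alone, Acadm had a log2 fold change of −1.13 ± 0.46 (adjusted p = 0.805 by edgeR). With Pdha1, Dld and Fh1 it made up the members lower without overlap in that comparison, 11.1% of the list against 4.04% of tested genes. Proximal tubule markers were lower in the same comparison for 18 of 19, with a median of −0.81 on the log2 scale. Over the stages, cKO against flox gave −0.57 ± 0.27 for Acadm (adjusted p = 0.716 by edgeR).

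In the remaining steps, Hadha had 176.9, 228 and 194 CPM in cKO PBS, 124.7, 382, 228 and 87.6 CPM at cKO day 4, and 96.4, 179.8, 299 and 195 CPM at cKO day 11. Hadha in flox mice had 303, 63.0 and 48.3 CPM under PBS, 218, 259.9 and 111.2 CPM at day 4, and 178.9, 159, 143 and 181 CPM at day 11. These groups overlapped throughout. Echs1, which hydrates the short-chain enoyl-CoA, had 47.2, 80.0, 5.15 and 11.0 CPM at cKO day 4 against 198.9, 185 and 99.4 CPM at flox day 4, a log2 fold change of −2.17 ± 0.96 (adjusted p = 0.661 by edgeR). In the other groups Echs1 overlapped, with 15.2, 171 and 69.7 CPM in cKO PBS, 148, 187 and 28.6 CPM in flox PBS, 53.7, 166, 110.6 and 193 CPM at cKO day 11, and 61.2, 118, 0.833 and 65.1 CPM at flox day 11.

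Eci2, an enoyl-CoA isomerase needed for unsaturated fatty acids, had 48.0, 77.3 and 44.3 CPM in cKO PBS, 34.4, 87.6, 151 and 103.8 CPM at cKO day 4, and 36.3, 66.2, 58.0 and 29.9 CPM at cKO day 11. In flox mice it had 3.63, 49.8 and 14.4 CPM under PBS, 44.3, 43.4 and 38.6 CPM at day 4, and 0.390, 27.8, 5.16 and 57.1 CPM at day 11. Of the flox libraries, 5 lay below the lowest cKO library. Comparing cKO with flox over the stages gave a log2 fold change of 1.19 ± 0.64 (adjusted p = 0.838 by edgeR). Etfa, which hands electrons from the dehydrogenases to Etfdh, had 71.9, 12.6 and 41.8 CPM in cKO PBS, 16.5, 85.6, 0 and 4.72 CPM at cKO day 4, and 24.3, 37.7, 60.0 and 3.38 CPM at cKO day 11. Its flox libraries had 29.8, 57.4 and 51.9 CPM under PBS, 2.84, 15.96 and 20.5 CPM at day 4, and 12.9, 18.3, 0.666 and 9.53 CPM at day 11, so both nephritis groups were below flox PBS without overlap. At flox day 11 the log2 fold change was −2.16 ± 1.62 (adjusted p = 0.861 by edgeR).

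Counts of members without overlap between groups varied by comparison. In flox mice at day 4, Dld, Ogdh, Fh1, Mdh1 and Etfdh were higher than under PBS, or 13.9% of members against 6.81% of tested genes, and Etfa alone was lower against 3.87%. In cKO mice at day 4, Ogdh alone was higher, against 1.37%, and 0 members were lower, against 4.76%. At cKO day 11, 0 members were higher than under PBS, against 2.75%. At flox day 11, Dld was higher against 3.86%, and Slc25a20, Decr1 and Etfa were lower, 8.33% against 2.53%. Between genotypes under PBS, Dld, Hadh and Etfdh were higher in cKO, 8.33% against 7.27%, and Acadl and Decr1 lower, 5.56% against 2.96%. Etfdh rests on few reads in both comparisons that name it. Its highest flox PBS value was 0.612 CPM, against lowest values of 0.783 CPM in cKO PBS and 1.38 CPM at flox day 4. At day 4, 0 members were higher in cKO than in flox, against 1.09%. At day 11 Dld alone was lower in cKO, against 1.29%, and 0 members were higher, against 1.22%. Over both genotypes or over the stages, 0 members separated. The background there was 0.101% higher and 0.165% lower for day 4 against PBS, 0.194% and 0.0504% for day 11 against PBS, 0.0288% and 0.0504% for day 11 against day 4, and 0.0072% and 0.0% for cKO against flox.

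Because tubules are rich in these enzymes, the level of each member was set against the proximal tubule level, the mean log2 CPM of the 20 markers, over the 21 libraries. The tubule level ran from 3.802 (flox day 11 replicate 3) to 7.08 (flox day 4 replicate 2), with a median of 5.74. Pearson's r was positive for 29 of 36 members with a median of 0.32, and 6 of the 36 relations had an adjusted p under 0.05 by permutation, against 4 by Spearman's rho. Over all 21 libraries r was highest for Hadh, the 3-hydroxyacyl-CoA dehydrogenase (r = 0.772, permutation p = 5e-05, adjusted p = 0.00108; rho = 0.690, permutation p = 0.00055, adjusted p = 0.0198), and for Acadvl, the very-long-chain dehydrogenase (r = 0.751, permutation p = 6e-05, adjusted p = 0.00108; rho = 0.648, permutation p = 0.00186, adjusted p = 0.0335). Without the 2 libraries farthest from the median tubule level, r was 0.640 for Hadh and 0.691 for Acadvl. As deviations from group means, r was 0.703 and 0.697 (both adjusted p = 0.0054 by permutation). These permutations ran over all 21 libraries without regard to the groups, so the within-group p values are likely too small.

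Acaa2 had r = 0.563 (permutation p = 0.00728, adjusted p = 0.0437; rho = 0.523, permutation p = 0.0165, adjusted p = 0.119), 0.768 within groups (adjusted p = 0.0018 by permutation), and 0.382 without the 2 farthest libraries, so the pooled value leans on those. Mdh1, Cpt2 and Fh1 had r of 0.637, 0.615 and 0.591 (adjusted p = 0.0244, 0.0257 and 0.0361 by permutation), and rho of 0.629, 0.483 and 0.408 (adjusted p = 0.0335, 0.170 and 0.297 by permutation). Their r was 0.569, 0.505 and 0.443 without the 2 farthest libraries, and their within-group adjusted p was 0.104, 0.0627 and 0.121 by permutation. Pdhb had r = 0.535 (permutation p = 0.0124, adjusted p = 0.0636; rho = 0.599, permutation p = 0.00483, adjusted p = 0.0435), 0.716 without the 2 farthest libraries, and 0.353 within groups (adjusted p = 0.236 by permutation). Hadha and Cpt1a had r of 0.133 and −0.14 (permutation adjusted p = 0.679 each). Thus r with the tubule level within groups was high for Hadh, Acadvl and Acaa2, with p values likely too small, and no relation was detected for Hadha.

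**Figure D4:**
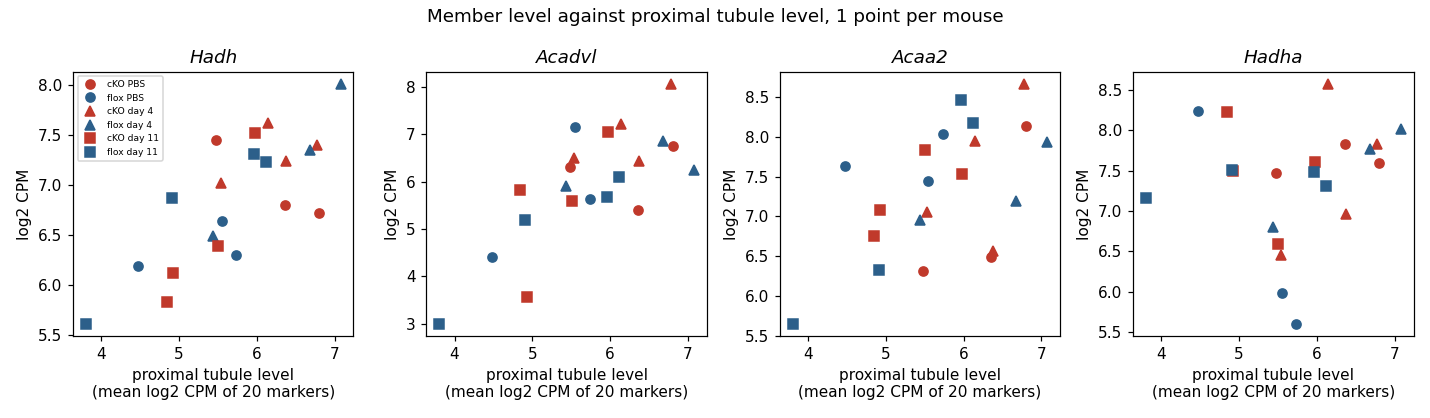
Member level (y axis, log2 CPM) against the mean log2 CPM of the 20 proximal tubule markers (x axis) for Hadh, Acadvl, Acaa2 and Hadha, with 1 point per mouse (red cKO, blue flox; circles PBS, triangles day 4, squares day 11). Hadh is higher where the tubule level is higher (r = 0.772), and Hadha shows no such order (r = 0.133).

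Genes of the same pathways outside the 36 gave 0 calls by edgeR in the 13 comparisons, from 22 of 24 tested genes of the cycle and pyruvate use, 35 of 36 of fatty acid handling and 14 of 15 regulators. Over both genotypes, 6 genes of the cycle and pyruvate list were higher and 16 lower at day 11 than at day 4 (median −0.26), 17 and 18 of the fatty acid list (median −0.03) and 7 and 7 of the regulators (median −0.01). Sdha, the flavoprotein subunit of succinate dehydrogenase, which links the cycle to the respiratory chain, averaged 157 ± 55.7 CPM at cKO day 11 against 90.8 ± 49.1 CPM at flox day 11 (SD, n = 4 each), and comparing cKO with flox over the stages gave a log2 fold change of 0.52 ± 0.27 (adjusted p = 0.817 by edgeR). Plin2, which coats lipid droplets, had 23.4, 50.6, 11.7 and 1.96 CPM at cKO day 4 and 72.6, 53.6 and 5.34 CPM at flox day 4. At day 11 it had 189, 64.3, 268 and 191 CPM in cKO and 105, 62.5, 48.2 and 90.3 CPM in flox. The log2 fold change of day 11 against day 4 was 1.91 ± 0.63 (95% interval 0.63 to 3.19, adjusted p = 0.382 by edgeR), and the groups overlapped over both genotypes.

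Crat, carnitine acetyltransferase, had 16.8, 51.2 and 30.9 CPM in cKO PBS against 1.47, 0 and 0 CPM in flox PBS. At day 4 it averaged 21.8 ± 21.0 CPM in cKO (SD, n = 4) and 52.3 ± 70.6 CPM in flox (n = 3), with 132.6 CPM in 1 flox library. At day 11 it averaged 27.3 ± 34.1 CPM in cKO and 33.4 ± 7.75 CPM in flox (n = 4 each). The order of the genotypes under PBS was therefore not seen in the means at either day. Pdpr, a regulator of pyruvate dehydrogenase phosphatase, was at 0 in all 7 day 4 libraries, whose floors of 3 reads ran up to 0.231 CPM; it had reads in 2 of 3 cKO PBS and 2 of 3 flox PBS libraries. The phosphatase gene Pdp1, the acyl-CoA synthetase gene Acsl6 and the regulators Klf15 and Esrrb each had at least 1 group at or near 0 and scattered reads elsewhere, so no fold is given. Ppargc1a, a coactivator of mitochondrial genes, averaged 26.4 ± 33.3 CPM at cKO day 11 and 30.7 ± 12.3 CPM at flox day 11 (SD, n = 4 each). Cpt1b, the muscle form of the carnitine transferase, had reads in 1 of the libraries of each group except flox day 11, where it was at 0. Pdk4, a kinase that inhibits pyruvate dehydrogenase, did not pass the low-count filter, with 761 reads at cKO day 11 and at most 2 in any other group. One library, cKO day 11 replicate 2, held nearly all of them, at 48.7 CPM against 0.112, 0 and 0 CPM in the other cKO day 11 libraries.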

How the data were processed

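Glomerular RNA of 21 mice was sequenced with a 3′ tag kit (QuantSeq FWD). Each library has a table of raw estimated counts that the authors deposited, as the file headers name them; 95.2% of the nonzero ones were whole (tolerance 0.005). Picard, DRAGEN, fastp, FastQC and build mm10 appear in the submitters' processing notes. What each did is not given in the sources used here, nor is the strand setting or annotation release. GENCODE M21 supplied symbols for 35513 of 35598 identifiers. No pair of libraries was identical (0 pairs).

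After rounding, edgeR 4.0.16 (R 4.3.3) was applied (minimum count 10, TMM factors from 0.751 to 1.12, robust quasi-likelihood F test), with all 21 libraries in 1 model of 6 group means (15 residual degrees of freedom) and Benjamini-Hochberg adjustment over 13898 genes, threshold 0.05. SE is the absolute log2 fold change over the root of F, and 95% intervals follow from it. CPM uses TMM-adjusted library sizes, and log2 CPM a prior count of 2. Relations to tubule level used 100000 two-sided permutations over all 21 libraries, also for the within-group deviations, adjusted over 36 members. Floors of 3 reads cover counting error only.

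The 36 members, all gene lists and tests were chosen with earlier results of these data known. Values in every library are given for the entry points by role (Pdha1, Cs, Ogdh, Cpt1a, Acadm, Hadha) and for the 3 members with the smallest p in each comparison of stages or genotypes; other pathway genes were named by smallest p, with Cpt1b, Pdk4 and Ppargc1a always. Alternatives were DESeq2 1.42.0, limma 3.58.1 voom, other normalization, filters, covariates, a replicate block and each library left out. The edgeR procedure was tested on simulated counts with a spread smaller than that of these libraries, and on counts with their own spread. A pass was required only at the smaller spread, so passing does not show how often real changes would be called here. Plots used matplotlib 3.10.9 and Python 3.11.15.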

Additional observations from a re-analysis of the deposited data

Results flagged for a closer look

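For each of 42 groups of 4 libraries (14 members), the gap of an end library to its nearest neighbour was divided by the range of the group. In 3 groups this ratio exceeded Dixon's critical value of 0.829. Chance alone flags about 1 in 20 such groups. Pdha1 had 368 CPM in cKO day 4 replicate 3, the library with the fewest genes detected (7871), against 71.2 to 104.7 CPM in the other 3. Dld had 111 CPM in cKO day 4 replicate 4, against 20.4 to 23.8 CPM in the other 3. Dld also had 78.2 CPM in flox day 11 replicate 1, against 35.0 to 40.9 CPM in the other 3.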

How the results depend on the processing

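No member was called by edgeR or voom under any alternative run, including each library left out, a minimum mean log2 CPM of 6 (members below it have no value there), removal of ribosomal, mitochondrial and red cell genes and, chosen after seeing the data, removal of CT010467.1 alone. DESeq2 called 1 member, Dld, in each of 6 comparisons, all of which use the flox PBS libraries. These were flox day 4 and day 11 against flox PBS, day 4 against PBS over both genotypes, cKO against flox under PBS, and both interactions. In that order, the DESeq2 values are 3.47, 2.67, 1.74, 2.52, −3.47 and −4.09 on the log2 scale. The median log2 fold change of the members moved by more than 0.313, the spread between libraries, in 3 cases. At flox day 4 it was 0.14 with the proximal tubule covariate, against 0.49. For cKO against flox under PBS it was 0.30 by voom, against −0.01, and for the interaction at day 4 it was −1.18 by voom, against −0.47. Pdhb at cKO day 4 against cKO PBS was −0.047 by voom, against 1.05. The cause was not tested.

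Leaving out 1 library gave a median of −0.08 to 0.22 at cKO day 4, 0.34 to 0.70 at flox day 4, −0.35 to −0.02 at cKO day 11, −0.12 to 0.27 at flox day 11 and −0.45 to −0.21 for day 11 against day 4. Over all genes, calls ran from 0 to 17 per comparison in edgeR, 495 to 1256 in DESeq2, 3 to 103 in voom, 0 to 39 without a low-count filter, and up to 30 with 1 library left out. With a replicate block, edgeR called 0 members and 0 to 10 genes, and the median for day 11 against day 4 was −0.31. Replicate numbers did not pair the mice: deviations of same-numbered libraries had a median correlation of −0.01, and 5 of 21 libraries correlated best with their own number. Members at 0 in some libraries were Etfdh (4), Slc25a20 (3), Dlat, Idh3a, Eci1 and Fh1 (2 each) and Idh2, Cpt2 and Etfa (1 each), where 3 reads, the limit that a count of 0 allows, stood for 0.120 to 0.672 CPM over the 21 libraries; the cause was not tested.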
